A study of Arabidopsis thaliana with 2 samples.

Results

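The 10 genes described here encode core components of the Arabidopsis circadian clock: CCA1, PRR9, PRR7, PRR5, TOC1, GI, ZTL, ELF3, ELF4 and LUX. They were taken by locus identifier from tables of 25224 genes and have 15 annotated isoforms. LHY, the close relative of CCA1, was left out because its ribo-seq value was considered unreliable. The material was wild-type (WT) Columbia seedlings, 13 days old, grown on MS plates under 16 h light and 8 h dark, and the hour of harvest is not given in the sources used here. From such seedlings polysomes that sediment with microsomal membranes (membrane-bound polysomes, MBPs) were isolated for 1 ribo-seq library, in which RNase I left only fragments shielded by ribosomes, and 1 mRNA-seq library. Each assay thus had 1 library and no replicate. The comparisons below are therefore descriptions of these libraries, a count test on the reads was run only as an alternative, intervals are 95% and cover counting error only, and PCR reads are not independent molecules.

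The plant clock is a loop of repressors that are made at successive times of day. The MYB factor CCA1 acts around dawn, the pseudo-response regulators PRR9, PRR7, PRR5 and TOC1 follow each other through the day, and in the evening ELF3, ELF4 and LUX form the evening complex, a repressor of day-phased genes. GI stabilises the F-box protein ZTL, a blue-light receptor that targets TOC1 and PRR5 for degradation.

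A known DNA signature of evening-phased clock genes is the evening element AAAATATCT, which CCA1 and its relatives bind. It was searched on both strands of the 1000 bases before each annotated gene start in the TAIR10.1 reference, where RefSeq annotates all 10 genes, and 7.24% of 27443 such promoters held it. At least 1 copy was found before 5 of the 10 genes: PRR5 and GI held 3 each, and TOC1, ELF4 and LUX held 1 each. The windows below show these copies in their surroundings because this motif is a feature that these 5 genes share outside their transcripts. Capitals mark the evening element, the sequence runs 5′ to 3′ on the strand named, and the distance counts bases from the far edge of the motif to the gene start.
TOC1 (chr5:24674802-24674831, minus strand, 151 bases before the start): tcatcttggagAAAATATCTcatgatattt
PRR5 (chr5:8359243-8359272, plus strand, 716 bases before the start): accaaacccaaAAAATATCTaatgctagtg
PRR5 (chr5:8358819-8358848, plus strand, 292 bases before the start): ttggatttgaaAAAATATCTagtagaattg
PRR5 (chr5:8358714-8358743, plus strand, 187 bases before the start): gtggagaaaagAAAATATCTagaaaaaatc
GI (chr1:8060932-8060961, plus strand, 809 bases before the start): gtaagattttAAAATATCTtaaaagatgtg
GI (chr1:8060964-8060993, minus strand, 777 bases before the start): agcccgttgagAAAATATCTaaatgggcct
GI (chr1:8061150-8061179, plus strand, 591 bases before the start): agctcccctcAAAATATCTgtggacatatg
ELF4 (chr2:16735470-16735499, minus strand, 536 bases before the start): atactacaaaAAAATATCTtgcggattatt
LUX (chr3:17182979-17183008, plus strand, 53 bases before the start): tagaagatctAAAATATCTagctaactcgt

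PRR5 is annotated without a 5' UTR, so its promoter window begins at the coding start. The shorter CCA1-binding site AAAAATCT occurred before PRR5 and PRR9, and in 21.1% of all promoters. The G-box CACGTG, a site of many light- and clock-related factors, occurred before CCA1, PRR7 and LUX (1 copy each) and PRR9 (2 copies), and in 14.8% of all promoters. The LUX-binding site, searched as GATACG or GATTCG, occurred before 7 of the 10 genes, all but CCA1, PRR5 and ZTL, and in 39.8% of all promoters. The ZTL promoter window held none of these motifs. A match of letters is a description and not a bound site.

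The depth, recovered from the step between deposited values, was 38438720 reads in ribo-seq and 66958223 reads in mRNA-seq. In RPM (reads scaled to a library of 1000000), 1 read was worth 0.0260 in ribo-seq and 0.0149 in mRNA-seq, and a count of 0 allows up to 3 reads, 0.0780 RPM and 0.0448 RPM. The labelled material was checked with markers. The green-tissue genes RBCS1A, RCA and LHCB4.1 lay between 768 and 9535 RPM in ribo-seq and between 1730 and 13066 RPM in mRNA-seq, and the root genes PYK10 and BGLU21 had 171 and 4.47 RPM in ribo-seq and 220 and 4.21 RPM in mRNA-seq. The seed storage genes SESA1 and SESA2 lay at or below 0.286 RPM in either library, and CRA1 had 3.75 and 7.35 RPM. In whole seedlings, fewer cells that express a gene and less RNA per cell cannot be told apart.

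Footprints of the clock genes on MBPs ranged between 3 reads for PRR9 and 814 reads for ELF3. Summed over the 10 genes, the exons had 68.9 RPM in ribo-seq (2649 reads) against 239.7 RPM in mRNA-seq (16053 reads). In ribo-seq 7 genes reached 1 RPM, and in mRNA-seq 9 did. The sparsest were PRR9, PRR7 and GI.

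**Figure D1:**
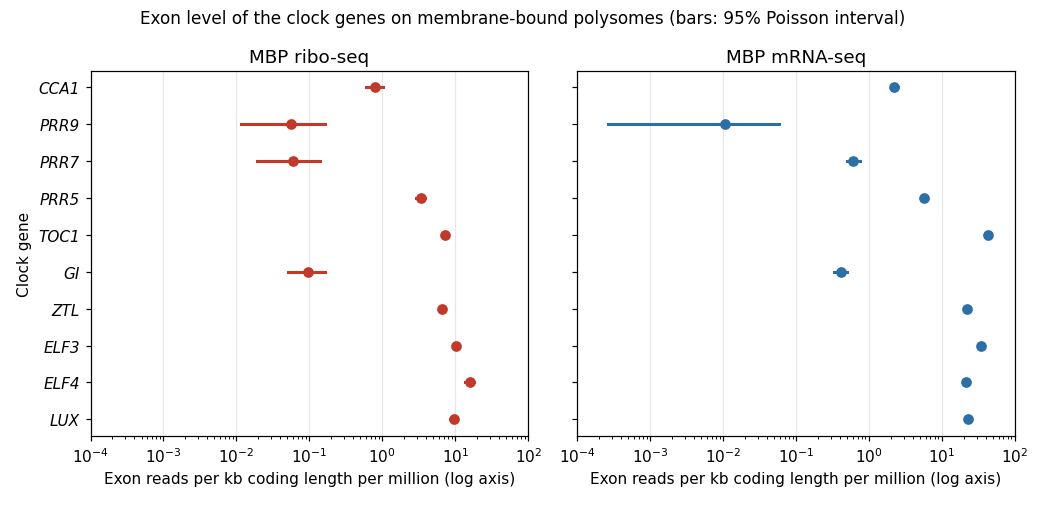
Exon level of each clock gene, as RPM per kilobase of coding length (log axis), in MBP ribo-seq (left) and MBP mRNA-seq (right), with exact Poisson 95% intervals as bars and genes in order of role from CCA1 to the evening complex. The evening complex genes ELF3, ELF4 and LUX lie between 9.45 and 15.7 in ribo-seq, while PRR9, PRR7 and GI lie below 0.1.

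Levels between genes were compared per kilobase of coding length (RPKM, RPM divided by kilobases). In ribo-seq ELF4 stood highest with 15.7 RPKM (13.6 to 18.0), followed by ELF3 with 10.1 (9.46 to 10.9) and LUX with 9.45 (8.49 to 10.5), so that the 3 evening complex genes took the top of the order. TOC1 with 7.27 RPKM (6.66 to 7.92) and ZTL with 6.65 (6.06 to 7.28) came next, then PRR5 with 3.35 (2.92 to 3.83) and CCA1 with 0.783 (0.590 to 1.02). The intervals of ELF3 and LUX overlapped, as did those of TOC1 and ZTL, and those of GI, PRR7 and PRR9 at the low end. In mRNA-seq the order was different at the top. TOC1 stood first with 43.1 RPKM (41.9 to 44.2), ELF3 had 34.9 (33.9 to 35.9), and LUX, ZTL and ELF4 followed at 23.0, 22.4 and 21.3 with overlapping intervals. PRR5 had 5.68 RPKM, CCA1 2.25, PRR7 0.615 and GI 0.411 in that library. Among 25034 genes with a coding length, the ribo-seq level of ELF4 lay at the percentile 82.5 and its mRNA-seq level at 75.5, whereas TOC1 lay at 71.1 in ribo-seq and 86.7 in mRNA-seq. CCA1 lay at nearly the same place in both, 37.5 and 37.3.

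To ask how densely the MBP transcripts of each clock gene were covered by footprints, the ribo-seq exon value was set against the mRNA-seq value. The ratio is the log2 of ribo-seq over mRNA-seq RPM after adding 1 to each, for genes with a mean of at least 1 RPM. It is read against the median of the 16879 genes that passed this filter, -0.99, because the libraries share no scale of their own. Without the added 1, the median gene had 0.446 times as many RPM in ribo-seq as in mRNA-seq, with quartiles of 0.281 and 0.660. A gene is called below or above when it lies more than 2-fold from the median. Of the 10 clock genes 7 passed the filter, 1 of them was below (11.8% of all genes past the filter were) and 0 were above (5.59% of all genes were). The 7 had a median ratio of -1.20, with 2 over and 5 under the median of all genes.

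**Figure D2:**
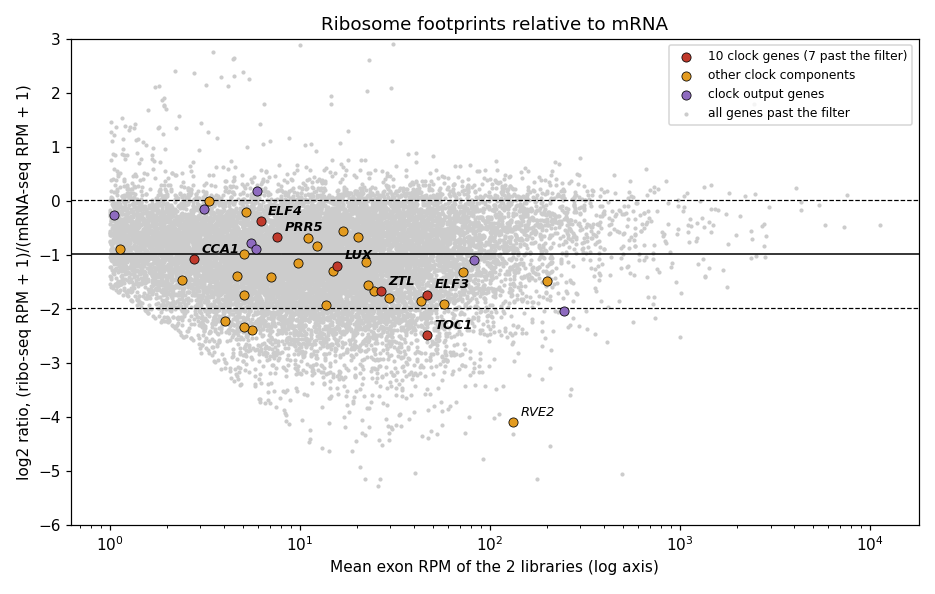
Log2 ratio of MBP ribo-seq to MBP mRNA-seq exon RPM (1 added to each) against the mean exon RPM of the libraries (log axis) for every gene past the filter, with clock genes in red, other clock components in orange and clock output genes in purple. The solid line is the median of all genes, -0.99, and dashed lines lie 2-fold away. TOC1 is the red point under the lower dashed line, and 12 genes fall outside the plotted range.

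TOC1, the repressor whose messenger peaks in the evening (AT5G61380, chromosome 5, 24674963 to 24678550, plus strand), was the clock gene below the 2-fold line. Its exons had 13.5 RPM in ribo-seq (519 reads) against 79.96 RPM in mRNA-seq (5354 reads), or 0.169 times as many (0.154 to 0.185). The log2 ratio was -2.48 ± 0.06 (counting error), 1.49 under the median on the log2 scale, at the percentile 4.53 of all genes. TOC1 had the most mRNA-seq reads of the 10 genes but fewer ribo-seq reads than ELF3. Its place more than 2-fold below the median held in all 9 alternatives of filter, pseudocount, isoform, scaling and UTR use, with offsets between -1.89 and -1.41.

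The other pseudo-response regulators were spread over a wide range. PRR5 (AT5G24470, chromosome 5, 8356204 to 8358546, minus strand), a repressor of CCA1 in the later day, had 5.62 RPM in ribo-seq (216 reads) against 9.53 RPM in mRNA-seq (638 reads), or 0.590 times as many (0.503 to 0.689), with a ratio of -0.67 ± 0.10. PRR7 (AT5G02810, chromosome 5, 637681 to 642030, minus strand) had 0.130 RPM in ribo-seq (5 reads) against 1.34 RPM in mRNA-seq (90 reads), or 0.0968 times as many (0.0307 to 0.234), and did not pass the filter. The PRR7 and TOC1 intervals overlapped, and the PRR5 interval lay above both. PRR9 (AT2G46790, chromosome 2, 19232607 to 19235179, plus strand), the earliest of the family in the day, had 0.0780 RPM in ribo-seq (3 reads) against 0.0149 RPM in mRNA-seq (1 read), at or under the floor of 3 reads in either library, so no fold is given. PRR9 reads are uncertain for a further reason, since 440 bases of its coding sequence are 99.3% identical to a stretch at AT2G46670, a locus not analysed here.

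CCA1 (AT2G46830, chromosome 2, 19245591 to 19248915, plus strand), the dawn MYB repressor, had 1.43 RPM in ribo-seq (55 reads) against 4.11 RPM in mRNA-seq (275 reads), or 0.348 times as many (0.256 to 0.467). Its ratio of -1.07 ± 0.13 was within the counting error of the median of all genes, at an offset of -0.08. This closeness depended on the pseudocount: the offset was -0.31 with a pseudocount of 0.1 and 0.15 with a pseudocount of 5. The isoform CCA1.2 had 39 ribo-seq and 220 mRNA-seq exon reads, with a ratio of -1.09. A read counts for every isoform it overlaps, so these rows are not independent.

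GI (AT1G22770, chromosome 1, 8061751 to 8067790, plus strand), the large protein that links the clock to flowering, had 0.338 RPM in ribo-seq (13 reads) against 1.45 RPM in mRNA-seq (97 reads), or 0.233 times as many (0.120 to 0.418), and did not pass the filter. Its partner ZTL was far more abundant on MBPs. ZTL (AT5G57360, chromosome 5, 23241320 to 23244590, plus strand) had 12.2 RPM in ribo-seq (468 reads) against 41.0 RPM in mRNA-seq (2748 reads), or 0.297 times as many (0.268 to 0.327), with a ratio of -1.67 ± 0.07. Isoform ZTL.2 gave nearly the same exon counts, 444 in ribo-seq and 2765 in mRNA-seq. ZTL shares 73.4% of bases over 1588 bases with its relative LKP2.

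Within the evening complex the 3 genes differed in ratio by more than their counting error. ELF4 (AT2G40080, chromosome 2, 16734294 to 16734953, minus strand), a small protein that binds ELF3, had 5.28 RPM in ribo-seq (203 reads) against 7.15 RPM in mRNA-seq (479 reads), or 0.738 times as many (0.623 to 0.872). Its exon ratio of -0.38 ± 0.10 was the highest of the 7 genes, at the percentile 82.1 of all genes, a rank that passed to PRR5 with UTR reads added or against genes of like length. LUX (AT3G46640, chromosome 3, 17183042 to 17186959, plus strand), the DNA-binding GARP factor of the complex, had 9.18 RPM in ribo-seq (353 reads) against 22.4 RPM in mRNA-seq (1497 reads), or 0.411 times as many (0.365 to 0.462). ELF3 (AT2G25930, chromosome 2, 11058944 to 11063324, plus strand), the scaffold, had the most footprints of all 10 genes, 21.2 RPM in ribo-seq (814 reads) against 72.8 RPM in mRNA-seq (4874 reads), or 0.291 times as many (0.270 to 0.313). The intervals of these folds do not overlap, with ELF4 above LUX and LUX above ELF3. Against genes of like length LUX lay at -0.36 ± 0.08 and ELF3 at -0.27 ± 0.05, offsets whose counting errors overlap. Whether strand was used in counting is not stated, and LUX overlaps AT3G46650 on the opposite strand over 1507 bases while ELF3 overlaps an antisense RNA, AT2G08135, over 183 bases.

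Coding length moved with the ratio among all genes. The median ratio was -0.53, -0.84, -1.10 and -1.47 from the shortest to the longest of 4 classes of about equal size, with bounds at 783, 1209 and 1770 bases, and the share below the 2-fold line was 3.92%, 8.59%, 12.3% and 22.5%. ELF4, with 336 coding bases, is in the shortest class, and its ratio was 0.16 over that class's median. CCA1, TOC1, ELF3 and ZTL, with 1827 to 2088 bases, are in the longest. Against the median of that class TOC1 lay at -1.01, ELF3 at -0.27, ZTL at -0.20 and CCA1 at 0.40 on the log2 scale. Against their own classes PRR5, with 1677 bases, lay at 0.43 and LUX, with 972 bases, at -0.36. The part of length in the members' values was not tested, but beside genes of like length TOC1 remained the clock gene that lay more than 2-fold below, with a counting error of 0.06 that spans the line.

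**Figure D3:**
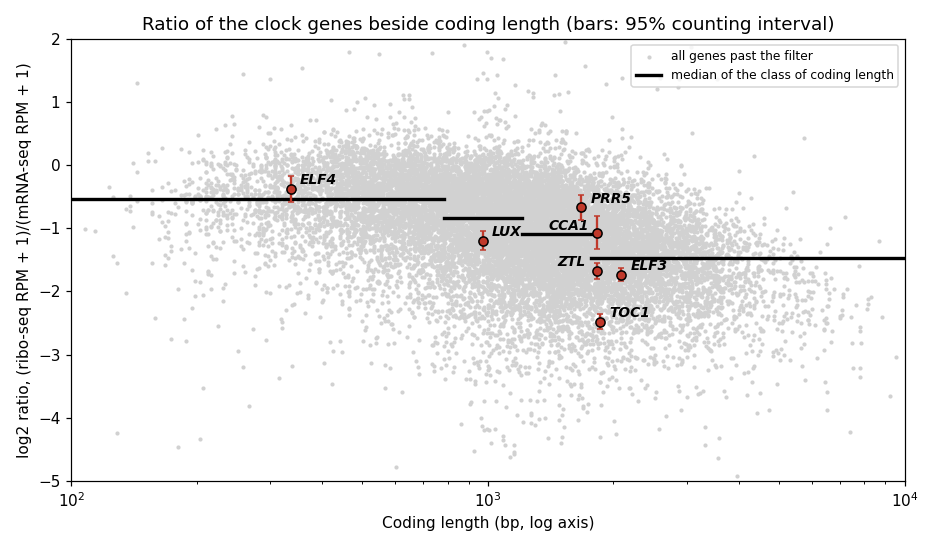
Log2 ratio of MBP ribo-seq to MBP mRNA-seq exon RPM against coding length in bases (log axis), with clock genes as labelled red points, bars of the 95% counting interval, and black lines at the median ratio of each class of coding length. ELF4 lies close to the line of the shortest class, -0.53, and TOC1 lies 1.01 under the line of the longest, -1.47. Outside the plotted range lie 54 genes.

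The reads of the clock genes lay mostly in coding sequence, and in ribo-seq almost none lay in the 3' UTR. Over the 10 genes, 4 of 2765 ribo-seq reads were in 3' UTRs, 0.145% (0.0394 to 0.370, exact Clopper-Pearson intervals here and below), against 2003 of 20011 mRNA-seq reads, 10.01%. Exons held 95.8% of the ribo-seq reads and 80.2% of the mRNA-seq reads. The 5' UTRs held 4.05% of the ribo-seq reads (3.35 to 4.85) and 9.77% of the mRNA-seq reads. Over all genes, the 5' UTR share was 1.14% in ribo-seq and 3.91% in mRNA-seq, and the 3' UTR share was 3.11% and 12.2%. Without the genes in the first 154478 bases of chromosome 1, where some features took many ribo-seq reads, the ribo-seq 3' UTR share of all genes was 0.672%. None of the 10 genes lies in that region. PRR5 has no 5' UTR value and PRR9 no 3' UTR value in the tables.

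**Figure D4:**
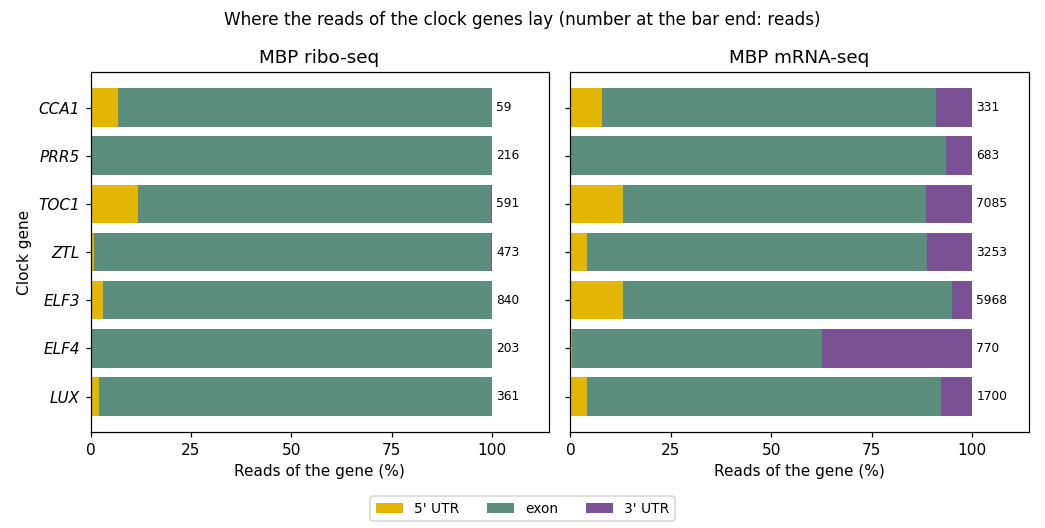
Share of each gene's reads in 5' UTR, exon and 3' UTR, in percent, for the 7 clock genes past the filter, in MBP ribo-seq (left) and MBP mRNA-seq (right), with the number of reads at the bar end. TOC1 keeps a 5' UTR band in both libraries (11.8% and 13.0%), while the wide 3' UTR band of ELF4 in mRNA-seq (37.4%) has no ribo-seq counterpart. PRR5 has no 5' UTR annotation.

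Of the 112 footprints in 5' UTRs, 70 were on TOC1 and 26 on ELF3. TOC1 had 11.8% of its ribo-seq reads in the 5' UTR (70 of 591, 9.35 to 14.7) and 13.0% of its mRNA-seq reads (920 of 7085, 12.2 to 13.8), shares whose intervals overlap. ELF3 had 3.10% in ribo-seq (26 of 840, 2.03 to 4.50) and 13.2% in mRNA-seq (786 of 5968, 12.3 to 14.1), shares that lie apart. The 5' UTR of TOC1 had 1.82 RPM in ribo-seq against 13.7 RPM in mRNA-seq, 0.133 times as many (0.102 to 0.169), and that of ELF3 had 0.676 against 11.7 RPM, 0.0576 times as many (0.0374 to 0.0851). On TOC1 leader and exons were thus covered to a like degree relative to mRNA, 0.133 and 0.169, and on ELF3 the leader was covered less, 0.0576 against 0.291 for its exons.

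The RefSeq 5' UTR of TOC1 is 577 bases long with 4 ATG triplets before the coding start, and that of ELF3 is 515 bases with 2. Upstream ATGs can open short reading frames that ribosomes translate before the main frame. At least 1 was present in 6 of the 9 clock genes with an annotated leader, and in 58.8% of the 21878 leaders of all genes. GI had 4, CCA1 3, and PRR7 and ZTL 2 each, while PRR9, ELF4 and LUX had 0. LUX, without an upstream ATG in its 206 bases, still had 8 of 361 ribo-seq reads in the leader, 2.22% (0.961 to 4.32), against 69 of 1700 mRNA-seq reads, 4.06%. ZTL had 4 of 473 ribo-seq reads there, 0.846% (0.231 to 2.15), and 136 of 3253 mRNA-seq reads, 4.18%. ELF4, with a leader of 32 bases, had 0 of 203 ribo-seq reads, which allows up to 1.80%, and 3 of 770 mRNA-seq reads. Which reading frame the leader footprints follow was not tested.

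Leader footprints were also set against the exon footprints of the same gene. This 5' UTR occupancy divides the ratio of UTR to exon RPM in ribo-seq by the same ratio in mRNA-seq, on the log2 scale and with 0.5 RPM added to each value, for genes with a mean 5' UTR value of at least 0.5 RPM. Of the clock genes 4 passed this filter, and 1 of them, LUX at 0.13, lay above 0 (24.2% of all 7029 genes did). TOC1 was at -0.09, ZTL at -0.35 and ELF3 at -1.62, and the median of all genes was -0.87. These values lean on the added 0.5 RPM, which exceeds the ribo-seq leader value of LUX (8 reads) and of ZTL (4 reads). Without it, an alternative chosen after seeing the data, all 4 lay below 0: TOC1 at -0.35, LUX at -1.02, ELF3 at -2.34 and ZTL at -2.53. The sign of LUX thus turned and ZTL moved to the level of ELF3, while the median of all genes was -2.42 and 10.5% of 7026 genes lay above 0. Under both forms TOC1 and LUX lay above the median of all genes. ELF3 lay under that median with the added 0.5 RPM (-1.62 against -0.87) and near it without (-2.34 against -2.42). A leader less covered than the exons, as on ELF3, was thus usual among all genes.

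The 3' UTRs of the clock genes were well covered in mRNA-seq and nearly empty of footprints. This was the usual state, as 7142 of 11226 genes compared over the 3' UTR had no ribo-seq reads there. ELF4 had 0 of 203 ribo-seq reads in its 3' UTR, against 288 of 770 mRNA-seq reads, 37.4% (34.0 to 40.9). TOC1 had 2 ribo-seq reads against 811 mRNA-seq reads, ZTL 1 against 369, ELF3 0 against 308, LUX 0 against 134, PRR5 0 against 45 and CCA1 0 against 30. The RPM of the TOC1 3' UTR was 0.0043 times as high in ribo-seq as in mRNA-seq (0.000519 to 0.0156). With the UTR reads added to the exon reads, ELF4 lay 0.21 over the median of all genes on the log2 scale, and with exon reads alone 0.61.

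The close relatives of the clock genes were taken from a list of 33 other clock components, of which 27 passed the filter. Of these 4 were below the 2-fold line and 0 above, against 11.8% and 5.59% of all genes, and their median ratio was -1.41, with 8 over and 19 under the median of all genes. PRR3, the remaining pseudo-response regulator, was among those below with 0.780 RPM in ribo-seq (30 reads) against 7.33 RPM in mRNA-seq (491 reads), 0.106 times as many (0.0710 to 0.154), closer to TOC1 than to PRR5. BOA, the homologue of LUX, was below with 1.12 RPM in ribo-seq against 10.1 RPM in mRNA-seq, 0.111 times as many (0.0796 to 0.151), an interval apart from that of LUX. With a pseudocount of 5 neither PRR3 (-0.44 from the median) nor BOA (-0.65) was called, and PRR3 also came inside the line with UTR reads added (-0.98). BOA matches LUX at 84.8% over 316 bases and overlaps AT5G59580 on the opposite strand over 1896 bases. The ZTL relatives FKF1 (2.13 RPM in ribo-seq, 7.26 RPM in mRNA-seq, 0.294 times as many) and LKP2 (8.30 and 21.8 RPM, 0.381 times as many) stayed within 2-fold of the median, as ZTL did.

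The ELF4-like genes were spread out. EFL2 had 3.33 RPM in ribo-seq against 3.36 RPM in mRNA-seq, 0.991 times as many (0.791 to 1.24), the highest ratio of the list at -0.01. EFL4 had 0.806 RPM in ribo-seq against 3.99 RPM in mRNA-seq, 0.202 times as many (0.135 to 0.294), an interval that lies below those of EFL2 and ELF4. EFL3 (16 ribo-seq and 45 mRNA-seq reads) and EFL1 (0 and 13 reads) did not pass the filter. All these genes are short, with 330 to 378 coding bases, so EFL4 lay at -0.93 and EFL2 at 0.52 from the median of the same length class on the log2 scale.

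**Figure D5:**
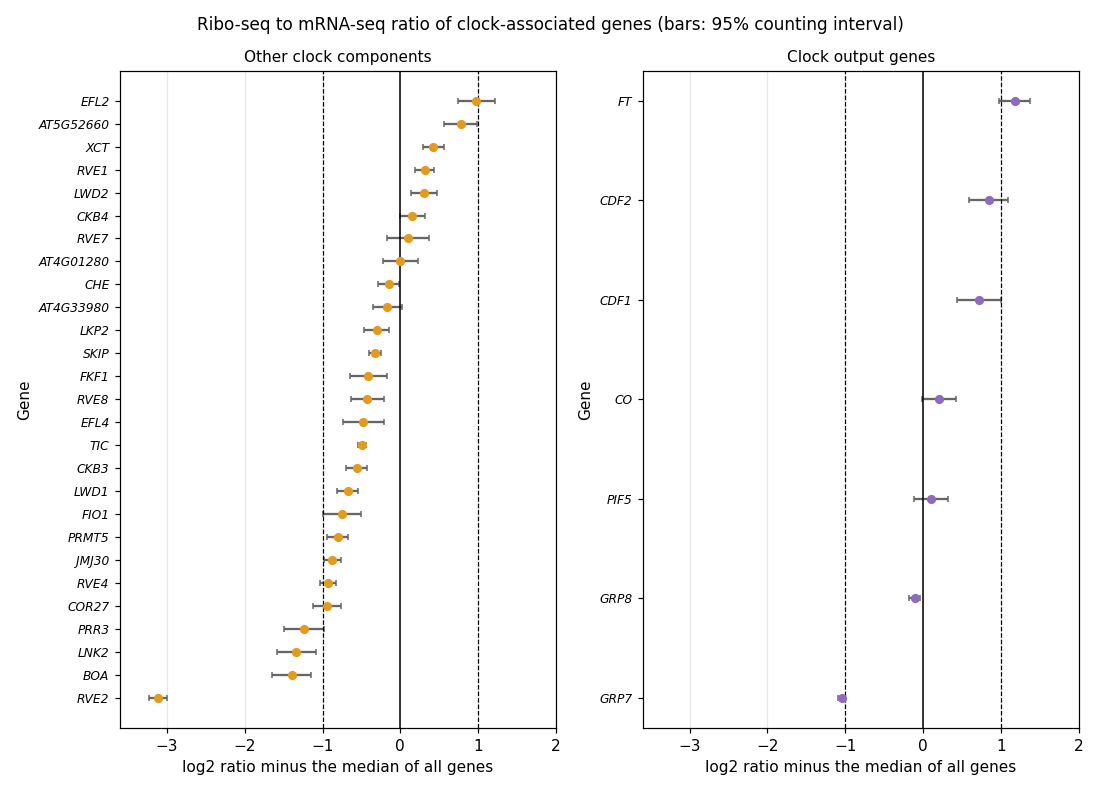
Log2 ratio of MBP ribo-seq to MBP mRNA-seq exon RPM minus the median of all genes, for the 27 other clock components (left) and the 7 clock output genes (right) past the filter, with bars of the 95% counting interval and dashed lines 2-fold from the median. RVE2, BOA, LNK2 and PRR3 lie below the lower dashed line, GRP7 lies just below it, and FT lies above the upper.

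The lowest ratio among the clock components was that of RVE2, a MYB gene related to CCA1. RVE2 had 13.6 RPM in ribo-seq (524 reads) against 249.9 RPM in mRNA-seq (16733 reads), 0.0546 times as many (0.0499 to 0.0595), at the percentile 0.228 of all genes. With fewer coding bases (864) than CCA1 it lay at -3.26 from the median of its length class on the log2 scale. LNK2, a transcriptional coactivator that works with the RVE proteins, was below with 1.01 and 9.11 RPM, 0.111 times as many, but lay at -0.86 from the median of its length class and at -0.58 with a pseudocount of 5, inside the 2-fold line. At the upper end, after EFL2, came AT5G52660 with 4.76 and 5.68 RPM and XCT with 13.5 and 20.4 RPM.

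Of 10 clock output genes, which read the clock out into flowering, growth and RNA binding, 7 passed the filter, with 5 over and 2 under the median of all genes and a median ratio of -0.78. FT, the florigen, was above the 2-fold line with 6.40 RPM in ribo-seq (246 reads) against 5.48 RPM in mRNA-seq (367 reads), 1.17 times as many (0.989 to 1.38). The call of FT, 1.18 over the median of all genes, was lost against its length class (0.73), with a pseudocount of 5 (0.77) and with no filter (0.78). The Dof repressors of flowering CDF2 (2.91 and 3.33 RPM) and CDF1 (0.859 and 1.24 RPM) had the next highest ratios, -0.15 and -0.27. GRP7, a clock-regulated RNA-binding protein, was below with 96.1 RPM in ribo-seq against 396.8 RPM in mRNA-seq, 0.242 times as many (0.234 to 0.251). It lay at -1.05 from the median of all genes, close to the line, and its call was lost with a pseudocount of 0.1 (-0.90) and after rescaling to summed exon RPM (-0.94). Against its length class GRP7 lay at -1.50. The GRP7 paralogue GRP8 had 52.2 and 112.4 RPM with a ratio of -1.09, and PIF5, a growth-promoting bHLH factor, had 3.82 and 7.90 RPM with a ratio of -0.88.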

How the data were processed

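Both libraries came from the MBP fraction. For ribo-seq the authors collected monosomes after RNase I digestion and removed rRNA with biotinylated probes. For RNA-seq in general they described polyA+ selection, and what these steps add to the ratio was not tested. TopHat2 2.0, bedtools 2.23.0 and TAIR10 are named in the submitters' processing notes. The deposited values are RPM per isoform for 5' UTR, exon and 3' UTR. The deposited mRNA-seq exon column sums to more than 1000000, as a read counts for each isoform it overlaps, and was treated as a signal on the RPM scale. Exon rows were read as coding sequence: 523 of 25688 transcripts had more mRNA-seq RPM in the 3' UTR than in the exon row, which rows that include the UTR would not give, and isoforms 1 and 2 of LUX had the same exon reads (1497) with 134 and 214 reads in the 3' UTR. The deposited totals were not used.

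Whole reads were recovered from the step of each column: 100% of 54886 ribo-seq and 81165 mRNA-seq values above 0 came out whole within 0.05 read. Each gene was represented by its isoform with the highest mean exon RPM. Ratios used a pseudocount of 1 and a mean exon RPM of at least 1. The pseudocount pulls the ratios of low genes toward 0, which lies above the median of all genes, -0.99. Low genes with a ratio under 0 can thus be placed too high against that median, or change side. The fold of CCA1 was 0.348, under the 0.446 of the median gene. Its offset nevertheless moved from -0.31 at a pseudocount of 0.1 to 0.15 at 5. Counts of genes over and under the median can carry the same shift. Folds have exact Clopper-Pearson intervals and levels exact Poisson intervals. A binomial test on the recovered reads, run as an alternative, called 6702 genes higher and 6682 lower than the median gene at 5% after Benjamini-Hochberg adjustment, and compares these libraries, not conditions.

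The members and lists were chosen with earlier results of these data known. Named genes were the 10 members, their relatives PRR3, BOA, FKF1, LKP2 and EFL1 to EFL4, and the 3 highest and 3 lowest of each other list. The reference annotation (RefSeq, TAIR10.1) matched 25042 of 25224 genes, and genes whose symbol it does not hold are given by ID. Statistics were computed with scipy 1.17.1, pandas 2.3.3 and numpy 2.4.6 in Python 3.11.15, sequences were read with Biopython 1.88 and matched with blastn 2.17.0, and the procedure was tested on simulated reads. Alternatives covered the pseudocount, filter, isoform, scaling, UTR reads, length class and the start of chromosome 1.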

Additional observations from a re-analysis of the deposited data

How the results depend on the processing

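With 1 library per assay and an unstated harvest hour, no value has a replicate check, PRR9 has too few reads for a fold, and PRR7 and GI (5 and 13 ribo-seq reads) have only wide intervals. No paired analysis was possible because each assay had 1 library, so that there is only 1 pair. The median of the clock genes, 0.21 under that of all genes (offset -0.21), was -0.70 with a minimum of 10 RPM (4 genes) and -0.47 with no filter (10 genes), where 3 genes were below the 2-fold line, as were 15.4% of all genes. At 4-fold 0 were below (1.72% of all genes). The binomial test called 3 lower and 2 higher than the median gene, beside 39.6% and 39.7% of all genes, and against library depth 7 lower and 0 higher, beside 90.1% and 3.53%. Of the 27 other clock components, 1 was above and 6 were below with a pseudocount of 0.1, beside 8.91% and 15.9% of all genes. With a pseudocount of 5, 3 were below (7.79% of all genes). At 10 RPM 1 of 15 was below (13.3% of all genes). With no filter 10 of 33 were below (15.4% of all genes), with a median of -0.70. Of the clock output genes, 0 of 7 were below with a pseudocount of 0.1 (15.9% of all genes). After rescaling to summed exon RPM 0 of 9 were below (13.3% of all genes). Above the line were 0 of 7 output genes with a pseudocount of 5 (0.995% of all genes). At 10 RPM 0 of 2 output genes were above (6.54% of all genes), and with no filter 0 of 10 (1.18%). Their median offset of 0.21 turned to -0.56 at 10 RPM (2 genes) and -0.067 with no filter. The median 5' UTR occupancy of the clock genes, 0.64 over that of all genes, was 0.12 with no filter. The 3' UTR value of 0.11 was 1.31 at a minimum of 2 RPM and -0.21 with no filter. With 0 to 2 ribo-seq reads per gene it is set by the added 0.5 RPM and has no direction of its own. The summed share of ribo-seq reads in 3' UTRs was lower in the clock genes (0.145%) than over all genes without the start of chromosome 1 (0.672%). That summed share is not the value of a typical gene, as 7142 of 11226 genes compared over the 3' UTR had no ribo-seq reads there. These filters change which genes remain and also the median of all genes, and other causes were not tested. With no filter ELF3 (-1.14) and ZTL (-1.08) joined TOC1 below the 2-fold line, and all 3 had passed the main filter. Without a filter the median of all genes was -0.59 in place of -0.99. The pseudocounts of 0.1 and 5 gave medians of all genes of -1.14 and -0.65, rescaling gave -0.36 and added UTR reads -1.20.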
